A study of Rattus norvegicus with 325 samples.

Results

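The genes described here are 10 antioxidant genes, most of them known targets of the transcription factor Nrf2 (gene name Nfe2l2), followed through adult life in 4 skeletal muscles of the rat. They are Nqo1, Hmox1, Gclc, Gclm, Txnrd1, Srxn1, Sod1, Sod2, Cat and Gpx3, 10 of the 17315 gene symbols in the count tables. They were chosen by their function, with earlier results of these data known. Diaphragm, gastrocnemius, soleus and tibialis anterior were taken from male Sprague Dawley rats, an outbred strain, at 7 ages, namely 6, 9 and 12 months, then 18 and 21 months, then 24 and 27 months. RNA sequencing gave 325 libraries, with 9 to 13 rats for each muscle and age. No animal carried a transgene or a treatment, and the 6-month rats, young adults, were the reference. All tissues of an age were collected on 1 day, so age and collection day cannot be told apart.

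Nrf2 is held in the cytoplasm by Keap1, which hands it to a Cul3 ubiquitin ligase for destruction. Oxidants and electrophiles modify Keap1, Nrf2 then accumulates, pairs with small Maf proteins in the nucleus and binds antioxidant response elements near its target genes, where Bach1 competes with it as a repressor. The targets make glutathione, recycle thioredoxin and peroxiredoxin, reduce quinones and break down haem. Superoxide dismutases, catalase and glutathione peroxidases remove superoxide and peroxides directly, and their expression depends less strictly on Nrf2. Skeletal muscle produces these oxidants in its mitochondria and through NADPH oxidases, and slow oxidative muscles such as the soleus hold more mitochondria than fast muscles such as the tibialis anterior.

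The core of the antioxidant response element is the motif TGACNNNGC. It was looked for on both strands of the 250 bases before the start of each gene in RefSeq promoter sequences (build GRCr8), where 10.1% of the 33469 promoters of the table hold it. Of the members, 9 had a promoter there, all but Hmox1, and 3 held the motif. The windows are shown because they place the motif against the genes whose levels follow, with the motif in capitals; in all 3 it lies on the strand opposite to the gene. The Gclm window is at chr2:213031943-213031991 (plus strand), with the motif starting 172 bases before the gene. The Sod2 window is at chr1:50050175-50050223 (minus strand), with the motif starting 35 bases before the gene. For Txnrd1, only 1 of its 2 promoter entries held the motif, at chr7:22755954-22756002 (minus strand), starting 78 bases before that start.
Gclm: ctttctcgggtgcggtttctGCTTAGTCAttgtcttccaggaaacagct
Sod2: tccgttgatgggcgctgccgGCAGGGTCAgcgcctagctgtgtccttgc
Txnrd1: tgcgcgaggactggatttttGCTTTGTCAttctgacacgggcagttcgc
A match is a description of letters, and the 250 bases of Nqo1, Gclc, Srxn1, Sod1, Cat and Gpx3 hold none. Sequence further from the start was not searched, and Hmox1 could not be searched at all.

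The libraries held 17555294 to 85316329 counts (median 31879679), and every member was counted in every library, from 75 counts for Hmox1 at the lowest to 46514 for Gpx3 at the highest. Levels are given as CPM, a gene's counts per 1000000 counts of its library, after TMM scaling, which sets the bulk of genes equal between libraries. The muscle labels were checked on myosin heavy chains: the slow myosin Myh7 had a median of 53190 CPM in soleus and 1917 CPM in tibialis anterior, and the fast myosin Myh4 had 15.9 and 68170 CPM. In 5 libraries the spread around the group mean was over 2 times that usual in the muscle, namely diaphragm 18 months replicate 11, gastrocnemius 6 months replicate 4, and tibialis anterior 21 months replicate 7, 24 months replicate 6 and 27 months replicate 9. The gastrocnemius libraries carried a running-number series of their own in the labels. The 12-month libraries of the other muscles carried another, which also held 1 library of 21 months in each of those muscles. Differences between these series therefore cannot be told apart from muscle or age. In bulk tissue, more cells of a type and more RNA per cell cannot be told apart either.

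A gene was called changed at an age when its level differed from 6 months by over 1.5-fold (0.585 on the log2 scale) at a Benjamini-Hochberg adjusted p under 0.05 over all genes of that muscle (limma-voom, two-sided). By this rule 6 of the 10 members rose in gastrocnemius at 27 months, where 15.1% of all genes were called higher and 7.76% lower. In tibialis anterior 4 rose and 1 fell, beside 17.2% of all genes higher and 10.4% lower. In soleus 2 rose and 1 fell, beside 9.21% higher and 5.78% lower. In diaphragm 1 rose, beside 3.27% higher and 4.25% lower. In both directions together, 6 members stood against 22.8% of genes in gastrocnemius, 5 against 27.6% in tibialis anterior, 3 against 15% in soleus and 1 against 7.52% in diaphragm. The median change of the 10 members was 0.61 on the log2 scale in gastrocnemius, 0.29 in tibialis anterior, -0.06 in soleus and 0.24 in diaphragm, where the medians of all genes were 0.04, 0.02, 0.02 and 0.0026.

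**Figure D1:**
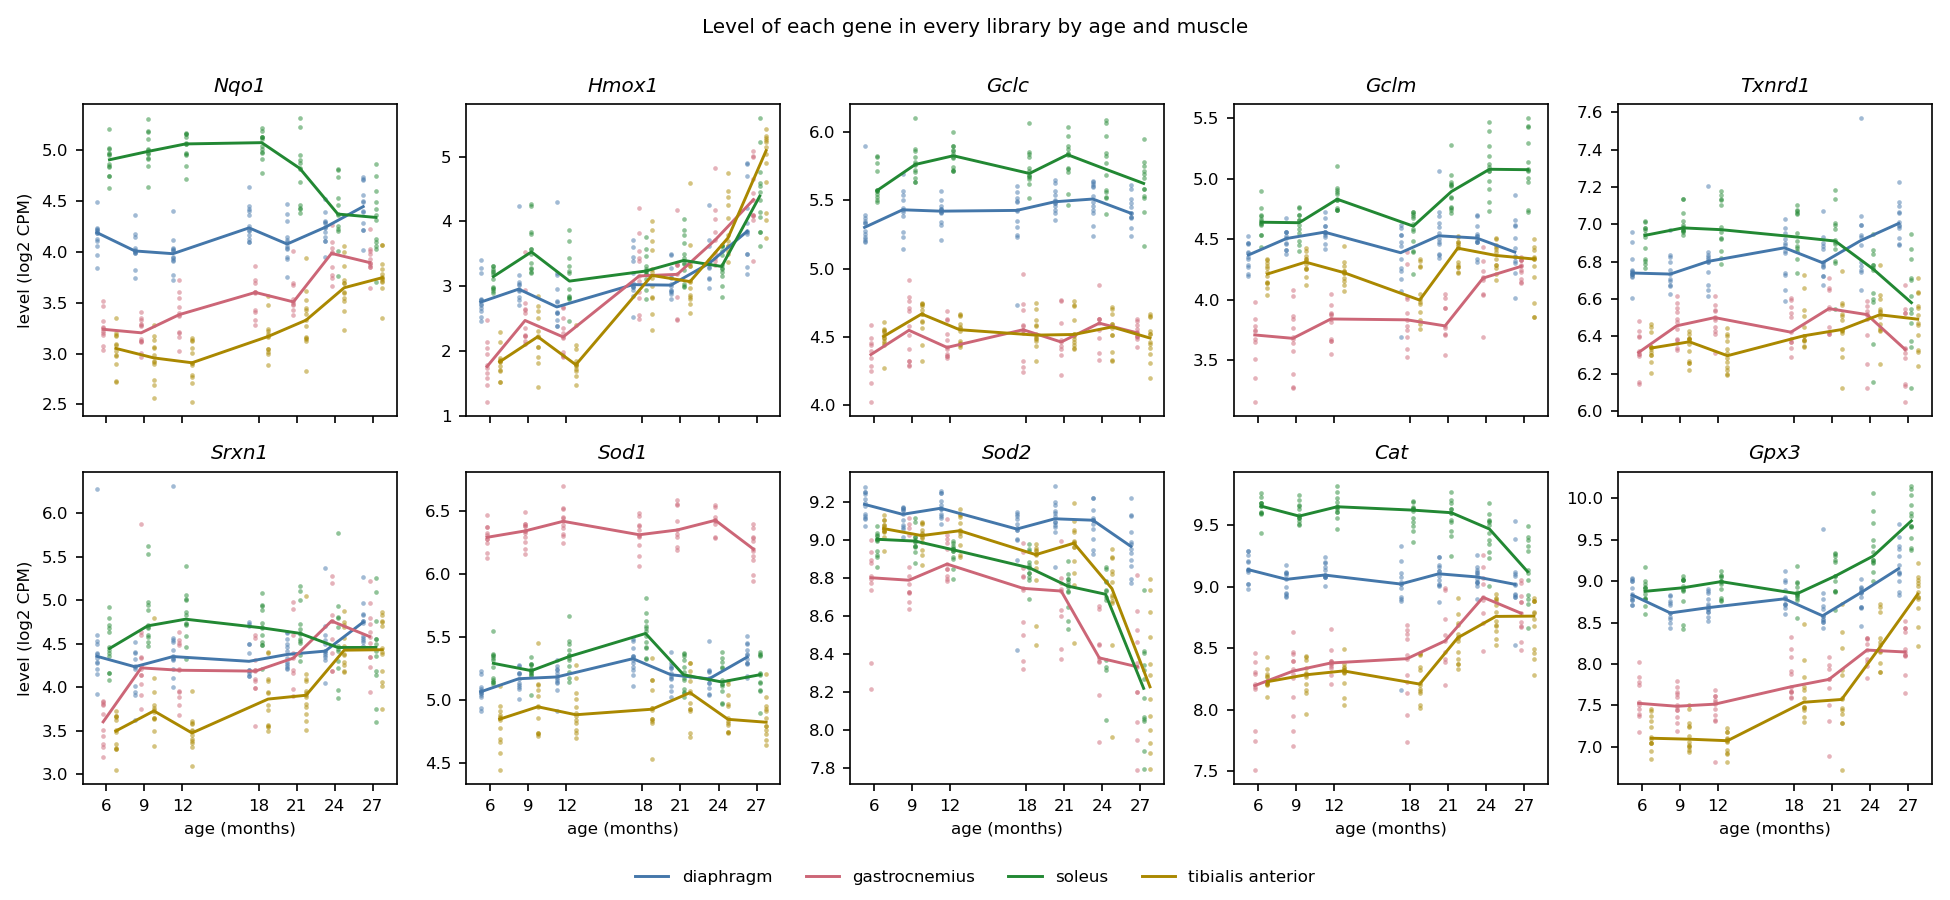
Level of each gene (log2 CPM) against age in months; each point is a library, each line joins the medians of 1 muscle, and points are shifted sideways by muscle. Each muscle was scaled on its own, so levels of different muscles are only roughly comparable. The medians of Hmox1 rose from 3.55 to 34.1 CPM in tibialis anterior, and those of Nqo1 stood at 29.9 CPM in soleus and 8.27 CPM in tibialis anterior at 6 months and at 20.2 and 13.4 CPM at 27 months.

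Hmox1 encodes haem oxygenase 1, which opens haem to biliverdin, iron and carbon monoxide and is a strongly inducible stress gene. It was the member with the largest change at 27 months in every muscle and the only member called in all 4. In tibialis anterior the libraries of 6 months ran from 2.84 to 4.91 CPM (median 3.55), and those of 27 months from 13.4 to 42.8 CPM (median 34.1). In gastrocnemius they ran from 2.30 to 5.57 CPM (median 3.37) at 6 months and from 10.5 to 33.8 CPM (median 20.2) at 27 months. Soleus libraries stood at 7.43 to 9.92 CPM (median 8.85) in young rats and 12.3 to 48.3 CPM (median 21.0) in old rats. The old and young libraries did not overlap in these 3 muscles. In diaphragm, 5.50 to 10.6 CPM (median 6.73) at 6 months became 9.07 to 29.8 CPM (median 14.4) at 27 months, with 10 of 12 old libraries above every young one.

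The fold changes of Hmox1 at 27 months were 8.19 in tibialis anterior, 5.88 in gastrocnemius, 2.46 in soleus and 2.25 in diaphragm. On the log2 scale these are 3.03 (SE 0.21, adjusted p = 1.12e-21), 2.56 (SE 0.22, adjusted p = 2.73e-16), 1.3 (SE 0.15, adjusted p = 2.50e-12) and 1.17 (SE 0.16, adjusted p = 1.14e-08) by limma. In both fast limb muscles Hmox1 was already called at 18 months, with log2 changes of 1.4 in gastrocnemius and 1.35 in tibialis anterior, and again at 21 and 24 months. In soleus the log2 change at 24 months was 0.21 (adjusted p = 0.345) and in diaphragm 0.56 (adjusted p = 0.0226, under 1.5-fold). The soleus range at 24 months, 7.09 to 12.4 CPM, still covered that of young rats. The old libraries also differed more among themselves: at 27 months the highest was 3.93 times the lowest in soleus and 3.19 times in tibialis anterior.

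Hmox1 is also abundant in macrophages, which take up red cells and dead fibres. The 8 macrophage markers that were summed (Cd68, Cd163, Csf1r, Adgre1, Mrc1, C1qa, C1qb and C1qc) moved with it. All 8 were called higher at 27 months in gastrocnemius and in tibialis anterior, 2 in soleus and 0 in diaphragm. In tibialis anterior the sum ran from 41.1 to 64.4 CPM (median 54.5) at 6 months and from 92.8 to 194 CPM (median 154) at 27 months. In gastrocnemius it ran from 95.1 to 159 CPM (median 121) and from 181 to 320.3 CPM (median 224), and in soleus from 176 to 284 CPM (median 229) and from 286 to 392 CPM (median 313). In diaphragm the 2 ages overlapped, with 140 to 242 CPM (median 194) and 209 to 306 CPM (median 245). None of the markers was at 0 in any muscle, and the part of these cells in the Hmox1 difference was not tested. Red cell markers summed to medians of 230.0 CPM at 6 months and 255 CPM at 27 months in tibialis anterior, with overlapping ranges.

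**Figure D2:**
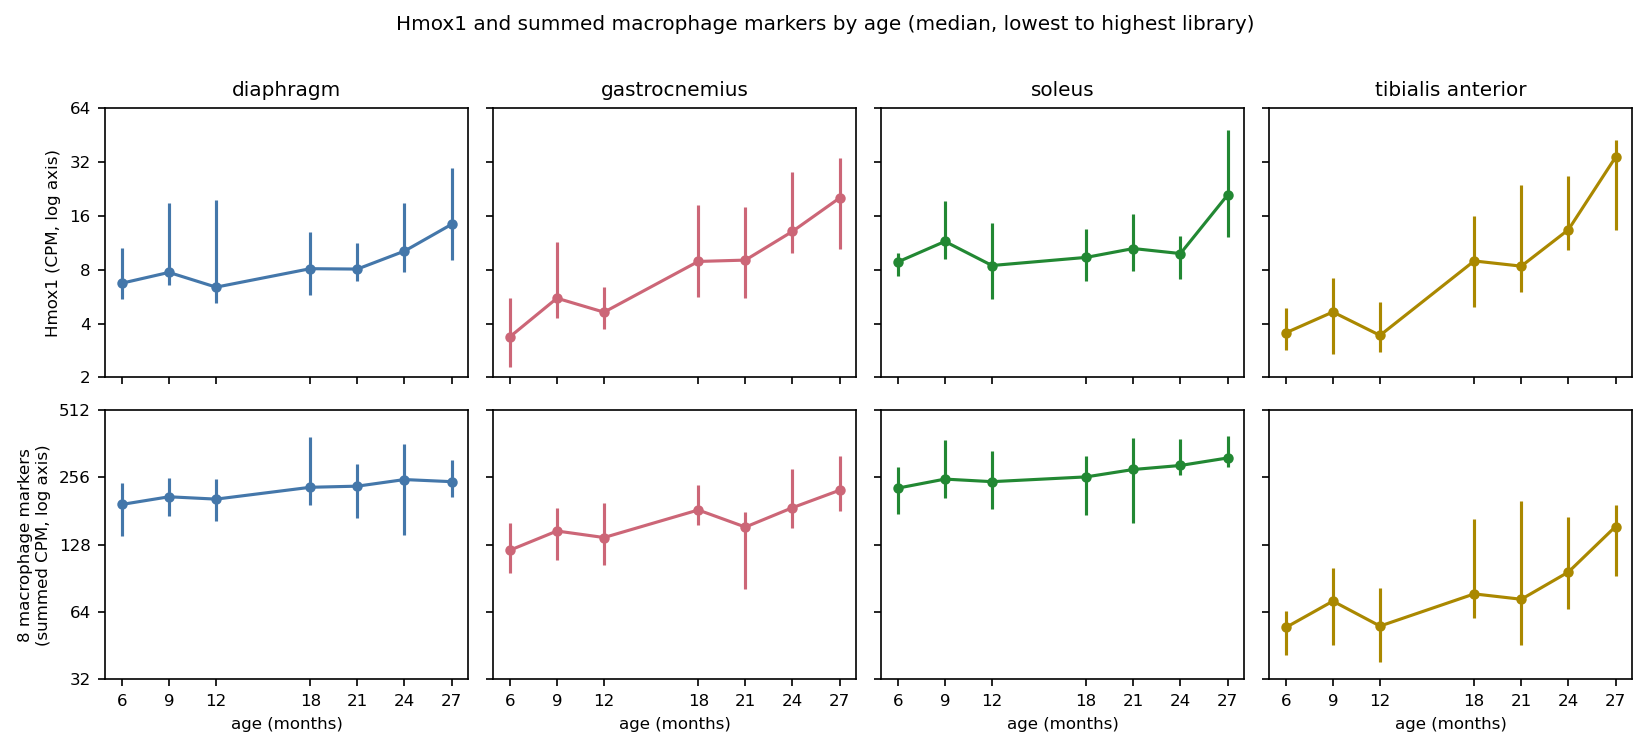
Hmox1 (upper row, CPM) and the sum of 8 macrophage markers (lower row, CPM) by age in months, on log2 axes; points are medians over libraries and bars run from the lowest to the highest library. In tibialis anterior Hmox1 went from a median of 3.55 to 34.1 CPM while the marker sum went from 54.5 to 154 CPM.

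Nqo1, the quinone reductase that is the classical readout of Nrf2 activity, rose in the fast limb muscles and had a change of the opposite sign in soleus. In tibialis anterior it ran from 6.58 to 10.16 CPM (median 8.27) at 6 months and from 10.19 to 16.8 CPM (median 13.4) at 27 months. In gastrocnemius it ran from 8.16 to 11.5 CPM (median 9.42) and from 12.5 to 18.6 CPM (median 14.8). Neither muscle had a young library that reached the lowest old one, and the log2 changes were 0.74 (SE 0.09, adjusted p = 2.42e-12) and 0.67 (SE 0.08, adjusted p = 1.05e-11) by limma. Nqo1 was called in both muscles at 24 months too, at 0.64 and 0.68. Soleus libraries ran from 24.6 to 36.9 CPM (median 29.9) in young rats and from 13.02 to 29.1 CPM (median 20.2) in old rats, and 10 of 12 old libraries lay below every young one. The log2 change there was -0.58 (SE 0.09, adjusted p = 1.98e-07), just short of 1.5-fold, so soleus Nqo1 was not called; with sample quality weights it was -0.62 and called, as it was in 9 of 24 repeats without 1 library, at -0.62 to -0.59. Diaphragm libraries overlapped, at 14.3 to 22.4 CPM (median 18.2) and 16.2 to 26.6 CPM (median 21.7).

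The difference in Nqo1 change itself was tested in 1 fit of all 325 libraries. The change from 6 to 27 months was 1.32 higher on the log2 scale in tibialis anterior than in soleus (SE 0.12, adjusted p = 2.76e-21). It was 1.25 lower in soleus than in gastrocnemius, a difference of -1.25 (SE 0.12, adjusted p = 2.11e-18), and the difference between soleus and diaphragm was -0.91 (SE 0.11, adjusted p = 1.22e-12). Soleus had the highest Nqo1 level of the muscles at 6 months and tibialis anterior the lowest, with a difference of -1.50 (SE 0.09) on the log2 scale, so the muscles stood closer together in old rats.

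Glutathione synthesis was represented by both subunits of glutamate-cysteine ligase, the rate-limiting enzyme. Gclm, the modifier subunit, rose in gastrocnemius from 8.89 to 15.8 CPM (median 13.1) at 6 months to 17.6 to 20.5 CPM (median 19.4) at 27 months, without overlap (log2 change 0.63, SE 0.09, adjusted p = 1.23e-08 by limma). That call rested on 1 young library: without gastrocnemius 6 months replicate 4, the library with the wide spread, the log2 change was 0.55, under 1.5-fold. In soleus the median Gclm level was 24.9 CPM at 6 months and 33.7 CPM at 27 months, a log2 change of 0.48 (adjusted p = 8.97e-09) that was also under 1.5-fold, and was 0.62 and called with total-count scaling. In tibialis anterior and diaphragm Gclm changed by 0.03 and 0.08 log2 units, which did not pass the test. The change in tibialis anterior was lower than in gastrocnemius by -0.59 (SE 0.10, adjusted p = 9.12e-07), a difference that came to -0.56 and was not called without the libraries with a wide spread or, again at -0.56, with total-count scaling.

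Gclc, the catalytic subunit, was not called in any muscle at any age. Its median level at 6 and 27 months was 39.4 and 42.4 CPM in diaphragm, 20.6 and 23.1 CPM in gastrocnemius, 47.6 and 49.4 CPM in soleus, and 22.6 and 22.5 CPM in tibialis anterior. The 95% intervals of its log2 change at 27 months ran at most from -0.14 to 0.34 over the 4 muscles, all inside 1.5-fold. In soleus and tibialis anterior the estimates, both -0.01, turned to 0.14 and 0.31 when libraries were scaled by total counts. The difference between the subunits was not tested.

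Srxn1 encodes sulfiredoxin, which restores overoxidised peroxiredoxins and is a direct Nrf2 target. In gastrocnemius its libraries ran from 9.21 to 14.3 CPM (median 12.2) at 6 months and from 15.4 to 37.3 CPM (median 24.0) at 27 months, and in tibialis anterior from 8.29 to 13.3 CPM (median 11.3) and from 13.5 to 29.1 CPM (median 21.6). The ages did not overlap in either muscle, and Srxn1 rose by 2.005-fold in gastrocnemius (log2 1.00, SE 0.17, adjusted p = 4.71e-07) and by 1.97-fold in tibialis anterior (log2 0.97, SE 0.13, adjusted p = 1.01e-10), both by limma. Gastrocnemius Srxn1 was the earliest member to be called, at 9 months (log2 0.77, adjusted p = 0.0124), at 12 months (0.60, adjusted p = 0.0441) and from 21 months on, but not at 18 months. Only 0.143% of the genes of that muscle were called at 9 months and 0.885% at 12 months. At 9 months its libraries ran from 13.5 to 58.7 CPM (median 18.7).

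In soleus and diaphragm Srxn1 was not called at any age. Soleus libraries ran from 16.9 to 30.3 CPM (median 21.8) at 6 months and from 12.1 to 38.1 CPM (median 22.0) at 27 months, so old libraries lay on both sides of the young ones, and the log2 change was -0.05, or 0.12 with total-count scaling. The change was higher by 1.03 log2 units in tibialis anterior than in soleus (SE 0.21, adjusted p = 1.66e-05), and the difference between soleus and gastrocnemius was -1.06 (SE 0.22, adjusted p = 1.86e-05). In diaphragm, 1 library of 6 months stood at 77.4 CPM where the group median was 20.5 CPM, and at 12 months 1 stood at 79.5 CPM. Against diaphragm, the log2 difference in change was 0.74 in gastrocnemius and 0.71 in tibialis anterior with that 6-month library, and 0.55 (adjusted p = 0.0209) and 0.52 (adjusted p = 0.0268) without it, where neither was called.

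Txnrd1, the cytosolic thioredoxin reductase, was not called in any muscle at any age. Soleus libraries ran from 109 to 129.5 CPM (median 123) at 6 months and from 69.6 to 123 CPM (median 95.8) at 27 months, a log2 change of -0.32 (SE 0.06, adjusted p = 1.81e-05). In diaphragm they ran from 97.5 to 124 CPM (median 107) and from 118 to 149.5 CPM (median 128), a log2 change of 0.26 (SE 0.06, adjusted p = 0.00013). Each of these stayed under 1.5-fold, but the muscles differed from each other, with a soleus minus diaphragm difference of -0.64 (SE 0.08, adjusted p = 9.07e-12), which was -0.47 and not called with total-count scaling. The log2 changes were 0.15 in tibialis anterior and 0.03 in gastrocnemius.

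**Figure D3:**
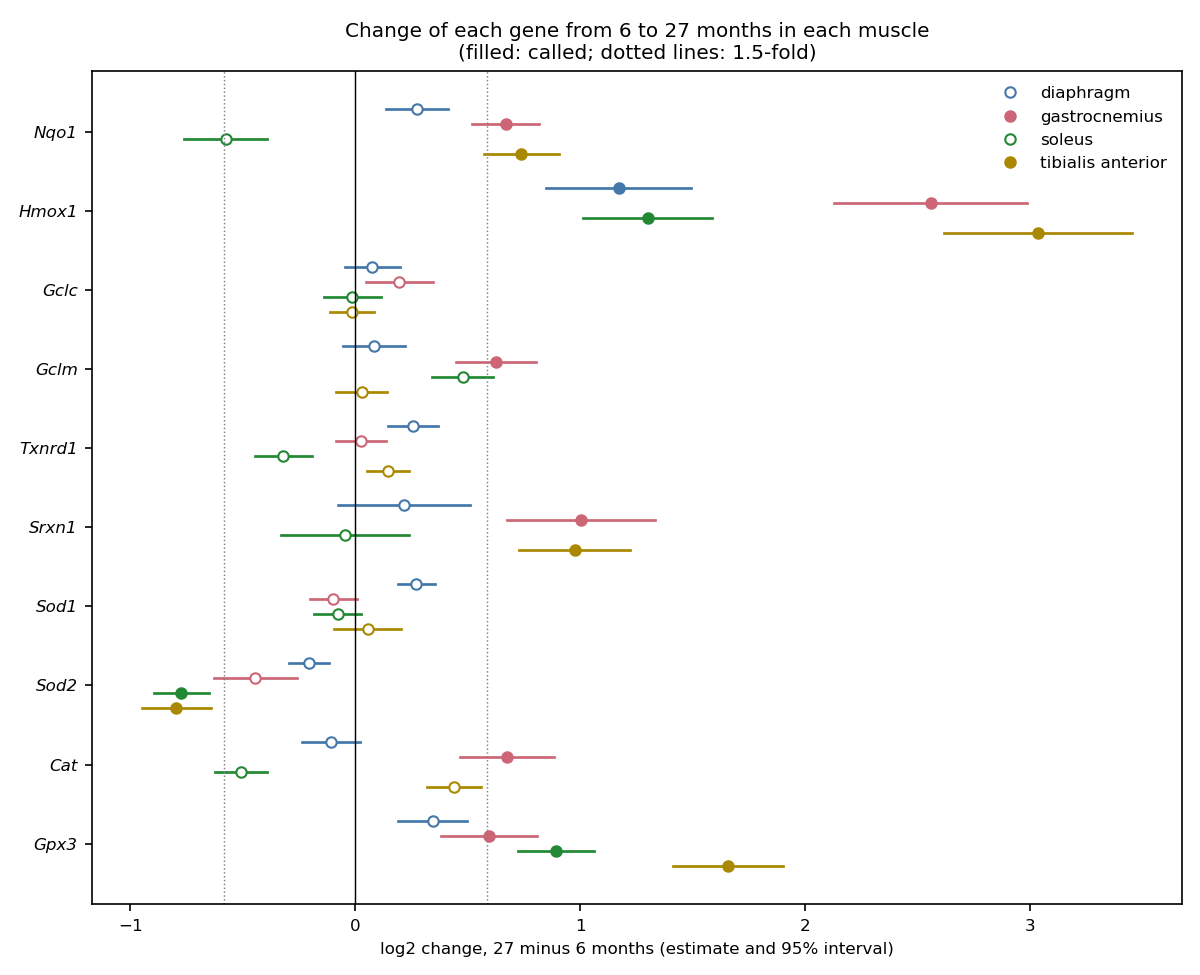
Log2 change of each gene from 6 to 27 months in each muscle, with its 95% interval; filled points were called and dotted lines mark 1.5-fold. The Hmox1 estimates run from 1.17 to 3.03, and the soleus estimates of Nqo1 (-0.58) and Cat (-0.51) lie on the other side of 0 from those of gastrocnemius and tibialis anterior.

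Among the enzymes that remove superoxide, Sod2, the manganese form in the mitochondrial matrix, fell and Sod1, the copper-zinc form of the cytosol, was not called. Sod2 libraries of tibialis anterior ran from 491 to 559.6 CPM (median 533) at 6 months and from 222 to 443 CPM (median 299.7) at 27 months, and those of soleus from 464 to 538 CPM (median 513) and from 222 to 426 CPM (median 298). Every old library lay below every young one in both muscles. The log2 changes were -0.79 (SE 0.08, adjusted p = 6.39e-15) and -0.77 (SE 0.06, adjusted p = 2.23e-18) by limma. With total-count scaling the first was -0.48 and not called, where that scaling moved the median of all genes by 0.34. In gastrocnemius the medians were 446 and 322 CPM (log2 change -0.44, adjusted p = 3.53e-05) and in diaphragm 583 and 499.8 CPM (-0.21, adjusted p = 0.000157), neither reaching 1.5-fold. Compared with diaphragm, the change was lower by -0.64 in tibialis anterior (SE 0.10, adjusted p = 3.46e-09) and by -0.63 in soleus (SE 0.10, adjusted p = 1.55e-08). With total-count scaling these differences were -0.31 and -0.46, and neither was called.

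At 24 months the log2 change of Sod2 was -0.35 in tibialis anterior and -0.39 in soleus. The sum of 9 muscle fibre markers, which include the myosins, had a lower median at 27 months in the limb muscles. The median was 193800 CPM at 6 months and 124300 CPM at 27 months in tibialis anterior, 112500 and 86560 CPM in soleus, 188600 and 134800 CPM in gastrocnemius, and 123600 and 128500 CPM in diaphragm. Gene by gene, 4 of the 9 were called lower in tibialis anterior and 2 in gastrocnemius with none higher, while 3 were called higher in soleus and 1 in diaphragm with none lower. The part of the sum in the Sod2 difference was not tested.

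Sod1 levels in young and old rats had medians of 33.5 and 40.5 CPM in diaphragm, 78.4 and 73.5 CPM in gastrocnemius, 39.1 and 36.8 CPM in soleus, and 28.8 and 28.3 CPM in tibialis anterior. The largest log2 change was 0.27 in diaphragm (SE 0.04, adjusted p = 1.55e-07), where 10 of 12 old libraries lay above every young one. The intervals of the other 3 muscles covered 0, and in gastrocnemius (-0.10) and soleus (-0.08) the sign turned with total-count scaling, to 0.19 and 0.07.

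Cat encodes catalase, the peroxisomal enzyme that splits hydrogen peroxide. In gastrocnemius it rose from 182 to 353 CPM (median 293) at 6 months to 358 to 532 CPM (median 441) at 27 months, without overlap (log2 change 0.67, SE 0.11, adjusted p = 1.35e-07 by limma), and it was called at 24 months as well (0.81). Tibialis anterior had 275 to 344 CPM (median 300.1) and 312 to 481 CPM (median 434), a log2 change of 0.44 (adjusted p = 1.47e-09) below 1.5-fold, which was 0.76 and called with total-count scaling. Soleus went the other way, with 693 to 870.4 CPM (median 807) in young rats and 407 to 720.0 CPM (median 558) in old rats, a log2 change of -0.51 (SE 0.06, adjusted p = 1.44e-11) that was likewise below 1.5-fold, and 11 of 12 old libraries lay below every young one. The difference between soleus and gastrocnemius was -1.19 (SE 0.10, adjusted p = 1.54e-22), and the change was higher by 0.95 (SE 0.10, adjusted p = 4.49e-17) in tibialis anterior than in soleus. Gastrocnemius also exceeded diaphragm, by 0.73 (SE 0.10, adjusted p = 1.27e-10). Cat in diaphragm had medians of 564 and 519 CPM and did not pass the test (adjusted p = 0.176).

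Gpx3, the secreted glutathione peroxidase of plasma and extracellular space, rose in the 3 limb muscles. The libraries of tibialis anterior ran from 115 to 176 CPM (median 138) at 6 months and from 297 to 595 CPM (median 459) at 27 months, a change of 3.15-fold (log2 1.66, SE 0.12, adjusted p = 3.10e-20 by limma), and Gpx3 was called at 24 months too (1.09). Soleus libraries ran from 389 to 577 CPM (median 470.3) and from 662 to 1136 CPM (median 848), a change of 1.85-fold (log2 0.89, SE 0.09, adjusted p = 8.30e-15). Neither muscle had overlapping ages. In gastrocnemius the ranges overlapped, at 144 to 260.5 CPM (median 184) and 201 to 368 CPM (median 283), and the log2 change of 0.59 (SE 0.11, adjusted p = 3.14e-06) lay at the edge of 1.5-fold. It was 0.55 to 0.58 in the 9 of 21 repeats without 1 library that lost the call. The diaphragm change was 0.34 (adjusted p = 0.000228). The change in tibialis anterior was higher than in each other muscle, by 1.26 against diaphragm (adjusted p = 8.78e-15), 1.06 against gastrocnemius (adjusted p = 2.53e-09) and 0.77 against soleus (adjusted p = 2.10e-06).

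Adipocytes make Gpx3, and the 7 adipocyte markers in the files moved with it in the limb muscles, with 5 of 7 called higher at 27 months in each of the 3 and 1 of 7 called lower in diaphragm. Their sum ran from 26.0 to 50.7 CPM (median 33.9) at 6 months and from 56.2 to 83.8 CPM (median 64.2) at 27 months in tibialis anterior. In soleus it ran from 55.8 to 241 CPM (median 155) and from 209 to 558 CPM (median 346), in gastrocnemius from 40.7 to 103 CPM (median 51.1) and from 63.4 to 117 CPM (median 82.2), and in diaphragm from 65.8 to 591 CPM (median 192) and from 105 to 359 CPM (median 154). None of the 7 was at 0 in any muscle. Their part in the Gpx3 difference was not tested.

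Across ages, few members were called before 24 months. At 9 and 12 months the only call was gastrocnemius Srxn1, beside 0.108% and 0.532% of all genes in diaphragm, 0.123% and 0.353% in soleus and 0.00851% and 0.196% in tibialis anterior. At 18 months Hmox1 alone was called, in gastrocnemius (4.32% of genes) and tibialis anterior (5.45%), with no member in diaphragm (2.25%) or soleus (2.84%). At 21 months Hmox1 and Srxn1 were called in gastrocnemius (5.81%) and Hmox1 in tibialis anterior (6.47%), again with none in diaphragm (1.68%) or soleus (2.61%). At 24 months 4 of 10 members had risen in gastrocnemius, Hmox1, Srxn1, Cat and Nqo1, where 18.8% of genes were called. In tibialis anterior 4 had risen as well, Hmox1, Gpx3, Srxn1 and Nqo1, beside 14.5% of genes, and the counts by limma in diaphragm (2.68%) and soleus (6.51%) were still 0. At an unadjusted p under 0.05 and any size of change, 6 members passed at 24 months in each of diaphragm and soleus, and 0 to 4 in the muscles and ages with no call before then. The share of all genes that passed this looser rule was not counted, so these numbers cannot be read as high or low. At 27 months no old library overlapped a young one for 5 members in gastrocnemius, 5 in tibialis anterior, 3 in soleus and 0 in diaphragm. Groups that did not overlap made up 14.2% of all genes in gastrocnemius, 19.9% in tibialis anterior, 5.62% in soleus and 2.92% in diaphragm.

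**Figure D4:**
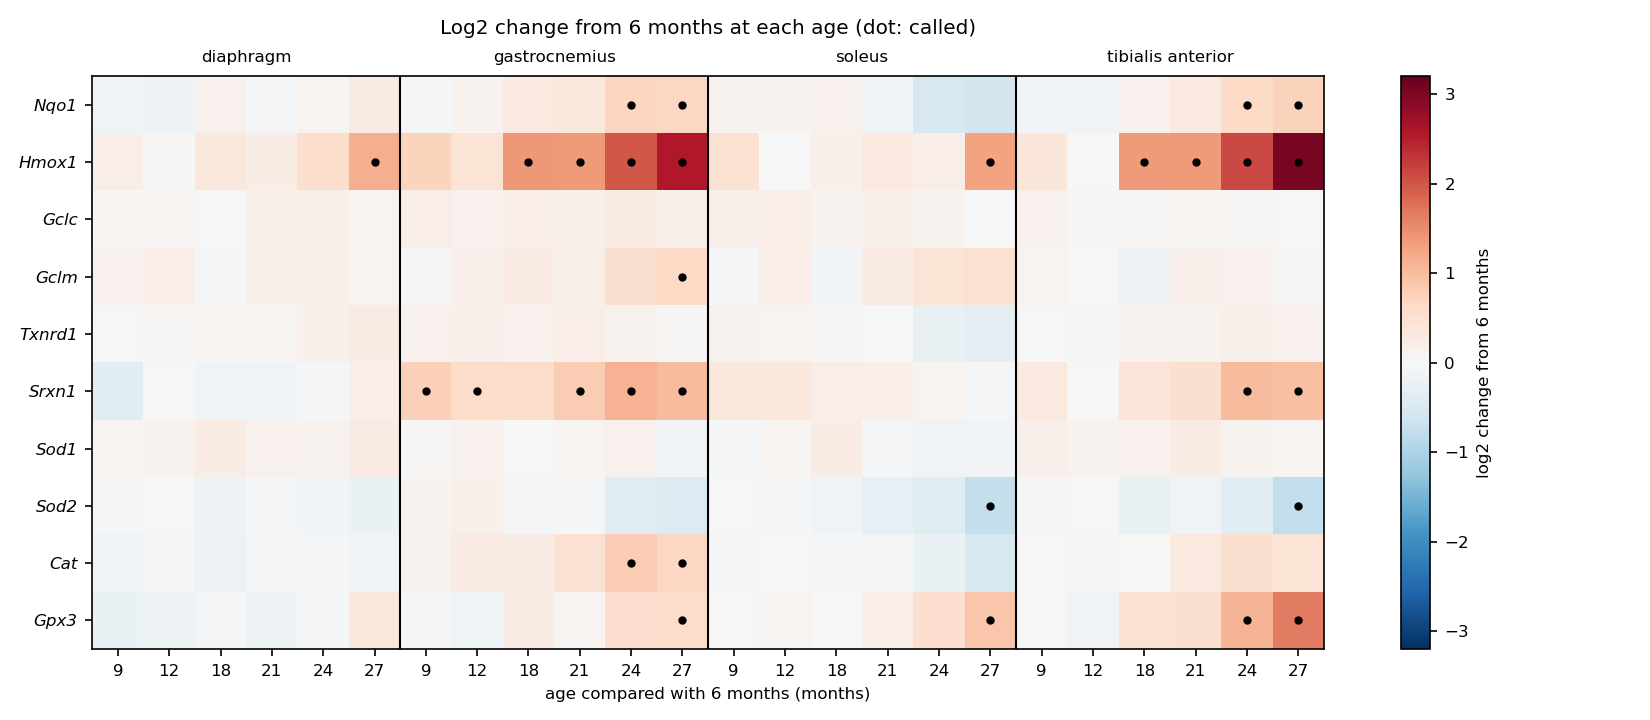
Log2 change from 6 months (colour) of each gene at each later age in months, by muscle; dots mark called changes. The dots of gastrocnemius start at 9 months with Srxn1 and those of tibialis anterior at 18 months with Hmox1, while soleus and diaphragm have dots at 27 months only.

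The shape of each course was described by a flat, a linear and a logistic curve in age. They were compared by BIC, a score that is lower for a better fit and charges for extra parameters. A course had a trend when the linear or logistic BIC was over 6 below the flat one. It was taken as linear unless the logistic BIC was over 2 below the linear one. A gene was counted as age-related when it had such a trend and was called at any age. All 6 age-related members of gastrocnemius followed a linear rise, where 23.3% of genes were age-related. In tibialis anterior (26.8% of genes) Srxn1 rose linearly, while Nqo1, Gpx3 and Hmox1 rose on late curves with midpoints at 22, 23.75 and 27 months and Sod2 fell with a midpoint at 25.25 months. In soleus (12.6% of genes) all 3 were late, with midpoints at 23.5 months for Gpx3, 25.5 months for Hmox1 and 27 months for the fall of Sod2. In diaphragm (6.70% of genes) Hmox1 was late with a midpoint at 27 months. A midpoint of 27 months is the last age studied and also the upper limit of the midpoints tried, so it is a bound and not an estimate. The fitted curves with it had not levelled off by then.

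Young muscles differed in their levels of these genes before any ageing. At 6 months soleus had the highest mean log2 CPM of 8 of the 10 members, Sod1 being highest in gastrocnemius and Sod2 in tibialis anterior. How many of all genes were highest in soleus was not counted. This order holds for TMM scaling and in part turned with total-count scaling. The tibialis anterior minus diaphragm difference of Sod2 was 0.25 with TMM and -0.20 with total counts. The soleus minus diaphragm difference of Gpx3 was 0.02 with TMM and -0.02 with total counts. Neighbours in that order often did not differ. By limma, the soleus lead over the next muscle was 0.02 log2 units for Gpx3 (adjusted p = 0.903) and 0.09 for Gclm (adjusted p = 0.231). For Hmox1 it was 0.30 (adjusted p = 0.17). For Srxn1 the mean was 4.33 log2 CPM in soleus and 4.32 in diaphragm. The fitted soleus minus diaphragm difference had the other sign, at -0.02 (adjusted p = 0.894 by limma). That diaphragm mean of Srxn1 held the library at 77.4 CPM. Soleus exceeded tibialis anterior in 6 members and 42.9% of all genes were called between the pair. Between soleus and gastrocnemius 7 members were called (45.4% of genes), 6 of them higher in soleus, and between soleus and diaphragm only Nqo1 was called (23.9% of genes), 0.76 higher in soleus.

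Gastrocnemius was below diaphragm in 5 members and above it in 1 (37.3% of genes), and tibialis anterior was below diaphragm in 4 (35.1% of genes). Without the diaphragm library that was high in Srxn1, the last count was 2, Nqo1 and Gpx3, since Srxn1 and Hmox1 were no longer called. The fast limb muscles differed in 2 members (17.3% of genes): Gclm was higher by 0.61 in tibialis anterior, and Sod1 was lower there by -1.46 (SE 0.06, adjusted p = 9.59e-71). Sod1 was higher by 1.56 in gastrocnemius than in diaphragm (SE 0.06, adjusted p = 2.65e-77), and its soleus minus gastrocnemius difference was -1.33 (SE 0.06, adjusted p = 3.05e-66). With each muscle scaled on its own, gastrocnemius Sod1 libraries ran from 70.1 to 89.0 CPM at 6 months, and no library of the other muscles at that age exceeded 46.8 CPM. Thioredoxin (Txn1), another small redox gene, also had a higher mean in gastrocnemius, at 3.00 log2 CPM over all ages against 0.33 to 1.04 in the others, each muscle scaled on its own. Whether these levels belong to the muscle or to its separate library series cannot be told apart.

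**Figure D5:**
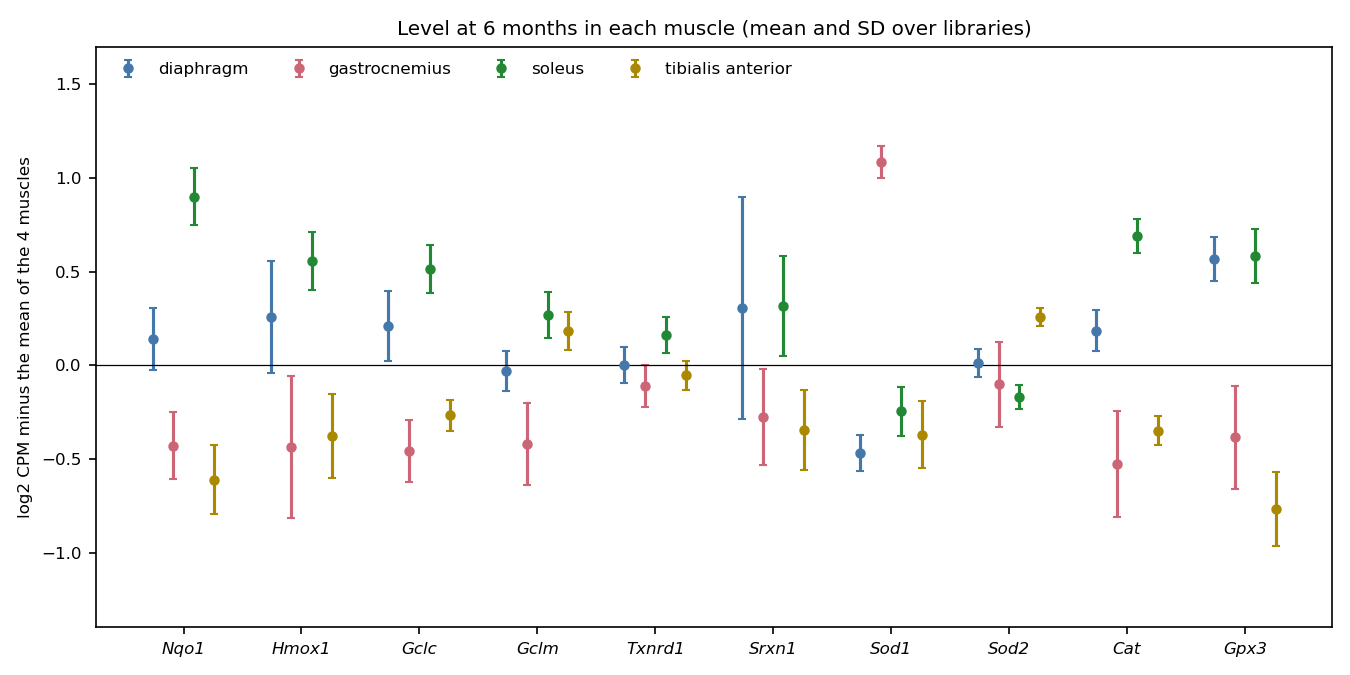
Level of each gene at 6 months in each muscle, as log2 CPM minus the mean of the 4 muscles; points are means and bars 1 SD over 10 to 12 libraries. Soleus is highest for 8 genes, and gastrocnemius Sod1 stands more than 1 log2 unit above the mean.

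Over all 6 pairs of muscles, 21 of 60 differences in change from 6 to 27 months were called for members. They numbered 5 for tibialis anterior against soleus (15.8% of all genes), 4 for soleus against gastrocnemius (14.5%), 4 for tibialis anterior against diaphragm (20.3%), 3 for gastrocnemius against diaphragm (21.6%), 3 for soleus against diaphragm (11.9%) and 2 for tibialis anterior against gastrocnemius (7.32%). Hmox1 changed more in each fast limb muscle than in soleus or diaphragm: the differences were 1.82 and 1.75 log2 units for tibialis anterior against diaphragm and soleus (adjusted p = 1e-09 and 2.13e-09), 1.33 for gastrocnemius against diaphragm (adjusted p = 2.09e-05) and -1.25 for soleus against gastrocnemius (adjusted p = 6.69e-05). Every one of the 5 members called between tibialis anterior and soleus, Cat, Gpx3, Hmox1, Nqo1 and Srxn1, was called higher in soleus than in tibialis anterior at 6 months, and its log2 change was the higher in tibialis anterior. These comparisons share their 6-month libraries.

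The wider Nrf2 and redox system was described by 8 lists of genes, 77 in the files without the members. At 27 months 15 rose and 5 fell of 75 tested in gastrocnemius, 19 and 6 of 74 in tibialis anterior, 12 and 6 of 75 in soleus, and 2 and 1 of 75 in diaphragm. That is 26.7%, 33.8%, 24.0% and 4.00% of the lists, against the 22.8%, 27.6%, 15% and 7.52% of all genes given above.

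Of 9 genes of Nrf2 and its regulators, 2 rose in gastrocnemius, 3 rose and 1 fell in tibialis anterior, 1 fell in diaphragm and none was called in soleus. Nfe2l2, named here for its role and not for its change, was at 0.54 in gastrocnemius (adjusted p = 2.66e-08) and 0.41 in tibialis anterior (adjusted p = 3.62e-11), under 1.5-fold, and at 0.12 in soleus and 0.06 in diaphragm. Keap1 was not called either, with log2 changes of -0.24 in gastrocnemius to 0.15 in diaphragm. Maff, a small Maf partner, rose by 1.81 log2 units in tibialis anterior (SE 0.17, adjusted p = 6.84e-16) and by 1.05 in gastrocnemius (adjusted p = 1.55e-06). Bach1, the repressor of Hmox1, rose in the same muscles, by 0.86 and 0.67. Sqstm1, the autophagy receptor p62 that binds Keap1, rose in tibialis anterior only (0.67), with 0.39 in gastrocnemius and diaphragm. Cul3, the ligase scaffold that destroys Nrf2, fell by 0.92 in tibialis anterior (adjusted p = 7.70e-15) and by 0.66 in diaphragm (adjusted p = 9.47e-09).

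Further Nrf2 targets included other genes of haem and iron handling. Ftl1, the light chain of ferritin, which stores the iron that haem oxygenase frees, rose by 1.68 in tibialis anterior (adjusted p = 7.52e-24), 1.25 in gastrocnemius (adjusted p = 1.40e-18) and 1.13 in soleus (adjusted p = 2.66e-22), and was at 0.47 in diaphragm. Blvrb, a biliverdin reductase, rose by 1.55 and 1.15 in tibialis anterior and gastrocnemius, with 0.23 in soleus and 0.26 in diaphragm. Ephx1, the microsomal epoxide hydrolase, was called in all 4 muscles, from 0.64 in tibialis anterior to 0.81 in diaphragm. Pir rose by 1.08 in gastrocnemius and 0.72 in tibialis anterior. Of the 12 targets tested, 4 rose and 2 fell in gastrocnemius, 4 and 1 in tibialis anterior, 3 and 0 in soleus, and 1 and 0 in diaphragm.

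Glutathione transferases couple glutathione to electrophiles. Of 14 tested, 6 rose in gastrocnemius and 6 in tibialis anterior, 7 rose and 2 fell in soleus, and 1 rose in diaphragm. Gstm2 rose by 2.25 in soleus (SE 0.22, adjusted p = 5.21e-15), 1.37 in tibialis anterior and 1.25 in gastrocnemius, and the low-level Mgst2 by 3.11, 2.48 and 2.20 in tibialis anterior, gastrocnemius and soleus and 0.81 in diaphragm. Mgst1 rose by 1.43, 1.24 and 0.71 in the same 3 limb muscles. Gstt1 rose by 1.68, 1.38 and 1.29 there, at a mean log2 CPM near or below 0. Near-identical transferase genes may share reads, so these values are uncertain to that extent.

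Of 13 thioredoxins and peroxiredoxins, 1 rose and 1 fell in each limb muscle: Prdx5, a mitochondrial and peroxisomal peroxiredoxin, fell by 0.60 in gastrocnemius and 0.62 in soleus, Txnrd2, the mitochondrial thioredoxin reductase, fell by 0.63 in tibialis anterior, Txn1 rose by 0.65 in gastrocnemius and 0.83 in tibialis anterior, and Txnip, an inhibitor of thioredoxin, rose by 0.64 in soleus. Of the other peroxidases only Gpx1, the cytosolic form, was called, with a fall of 0.84 in soleus (adjusted p = 1.13e-10). Among 8 genes of glutathione supply, Ggct fell by 1.06 in tibialis anterior and Glrx5 by 0.60 in gastrocnemius. Of 7 sources of NADPH, Tkt of the pentose phosphate pathway rose by 0.61 in tibialis anterior, where Me1 fell by 0.79, and Nnt of the mitochondria fell by 0.60 in soleus. Of 6 oxidant sources, 2 rose and 1 fell in gastrocnemius and in tibialis anterior, where 5 were tested, and 1 rose and 1 fell in soleus. Nox4 rose by 1.64 in both fast limb muscles and 0.81 in soleus, Cybb, the phagocyte oxidase, rose by 1.14 in tibialis anterior and 0.96 in gastrocnemius, and Ncf1 fell by 0.78, 0.69 and 0.92 in tibialis anterior, gastrocnemius and soleus.

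The genes with the age course most like each member were found over 28 group means (4 muscles by 7 ages, each muscle centred) among 8112 genes. The group means share their libraries and scaling, so the correlations are descriptions. Hmox1 was closest to Ctsb (r = 0.97), Lmna (0.97) and Stat3 (0.97), and Sod2 to Mpc1 (0.98), Pdhb (0.98) and Mfn1 (0.97), 3 genes of mitochondria. Nqo1 was closest to Gsr, glutathione reductase (0.91), then to Cap2 and Nicn1. Gpx3 was closest to Abcg1, Chrd and the metallothionein Mt1a (0.95 to 0.96), Cat to Bloc1s5, Tbce and Mgea5 (0.93 to 0.95), and Gclm to Brca2, Fam172a and Rpgrip1l (0.90 to 0.95). Srxn1 was closest to Coro6, Tmbim1 and Arl6ip5 (0.86 to 0.87), and Txnrd1 to Hsd3b7, Hsp90ab1 and Ranbp10 (0.85 to 0.88). The members with little change had weaker neighbours, Oxsm, Mterfd2 and Dnajb2 for Sod1 (0.76 to 0.82), and Ctbp2, Abhd6 and the clock gene Nr1d2 for Gclc (0.71 to 0.79). Among the members themselves, the course of Hmox1 was like that of Gpx3 (0.90) and that of Nqo1 like that of Cat (0.84), while Sod2 ran opposite to Gpx3 (-0.91) and to Hmox1 (-0.84).

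Other markers moved with age as well. Of 13 clock genes, 9 were called at 27 months in diaphragm, 7 in gastrocnemius, 9 in soleus and 10 in tibialis anterior, in both directions, and their part in the members' differences was not tested. Endothelial markers were called in 0 of 8 genes in diaphragm and 1 of 8, lower, in each limb muscle. Fibroblast markers were called lower in 4 of 8 genes in diaphragm, 2 in gastrocnemius and 2 in soleus, and higher in 1 in tibialis anterior, and red cell markers were called in 0 to 2 genes a muscle.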

How the data were processed

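The authors stored tissue in RNAlater, isolated total RNA, removed ribosomal RNA and made strand-specific libraries that were sequenced as read pairs. Reads were assigned to RefSeq-based rat gene models in ArrayStudio (version not given in the sources used here), and the deposited values are raw counts per gene, with no normalization. Here counts were filtered (edgeR filterByExpr, minimum count 10, minimum total 15), scaled by TMM and fitted by limma-voom (R 4.3.3, limma 3.58.1, edgeR 4.0.16) for each muscle, each age against 6 months. Muscles were compared in 1 fit of all 325 libraries over 12784 genes. Levels are CPM (counts per 1000000 counts of the library), in log2 with a prior count of 0.5. The fits and trend classes were tested on simulated data.

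Alternatives included edgeR, DESeq2 (1.42.0), other scalings, other thresholds and leaving libraries out. The 10 members and all lists were chosen with earlier results of these data known. Of the wider lists, up to 4 genes with the largest called change at 27 months and a mean log2 CPM over 0 were named. The values of 1 gene that this rule names are not reported here. Within a muscle, each library is from a separate rat, while the labels do not tie the muscles of a rat together. Depth was 17555294 to 85316329 counts, so p-values rest mainly on the spread between rats.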

Additional observations from a re-analysis of the deposited data

Results flagged for a closer look

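The change from 6 to 27 months differed between muscles for 21 of 60 member and muscle pairs by the interaction test (limma-voom). Each value is a log2 difference in change, the muscle named first minus the second, and for called values the sign shows which muscle had the higher change. Gastrocnemius minus diaphragm gave 0.735 for Cat, 1.33 for Hmox1 and 0.738 for Srxn1. Soleus minus diaphragm gave -0.907 for Nqo1, -0.626 for Sod2 and -0.636 for Txnrd1. Soleus minus gastrocnemius gave -1.19 for Cat, -1.25 for Hmox1, -1.25 for Nqo1 and -1.06 for Srxn1. Tibialis anterior minus diaphragm gave 1.26 for Gpx3, 1.82 for Hmox1, -0.640 for Sod2 and 0.710 for Srxn1. Tibialis anterior minus gastrocnemius gave -0.594 for Gclm and 1.06 for Gpx3. Tibialis anterior minus soleus gave 0.954 for Cat, 0.774 for Gpx3, 1.75 for Hmox1, 1.32 for Nqo1 and 1.03 for Srxn1. The Srxn1 differences against diaphragm were 0.55 for gastrocnemius and 0.52 for tibialis anterior, neither called, without diaphragm 6 months replicate 0, and that of Gclm was -0.56 without the libraries of wide spread. With total-count scaling 4 of the 21 lost their call, namely Txnrd1 (-0.467) and Sod2 (-0.461) for soleus minus diaphragm, Sod2 (-0.312) for tibialis anterior minus diaphragm and Gclm (-0.560) for tibialis anterior minus gastrocnemius. Other differences gained a call with that scaling. Against diaphragm these were Nqo1 (0.631) and Gclm (0.788) in gastrocnemius, Gpx3 (0.656) in soleus, and Nqo1 (0.744) and Cat (0.826) in tibialis anterior. Txnrd1 (0.641) gained one for tibialis anterior minus soleus. Bonferroni adjustment removed the calls of Hmox1 and Srxn1 for gastrocnemius minus diaphragm, Hmox1 for soleus minus gastrocnemius and Srxn1 for tibialis anterior minus diaphragm.

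Dixon's criterion for a library far from the rest was applied only to groups of 9 or 10 libraries. These were gastrocnemius at 6, 21 and 24 months, each tested for the 10 members. Of these 30 tests 1 found such a library, where chance flags about 1 in 20. The larger groups, among them every group of the other muscles, were not tested this way. It was the Nqo1 level of gastrocnemius 21 months replicate 8, at 4.007 log2 CPM with the nearest library at 3.688.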

How the results depend on the processing

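Of the 40 log2 changes of members at 27 months, all kept direction and call under Bonferroni adjustment, edgeR and RLE size factors, and 39 under DESeq2 and 39 with no filter on low counts, Gpx3 in gastrocnemius losing its call (0.58 and 0.57). Sample quality weights changed 2 calls, and leaving out the libraries of wide spread (chosen after seeing the data) changed 1. With total-count scaling the median of all genes moved by 0.321 in gastrocnemius, 0.164 in soleus, 0.337 in tibialis anterior and 0.0433 in diaphragm. Changes not called then reversed to 0.186 (Sod1) in gastrocnemius, 0.137 (Gclc), 0.116 (Srxn1) and 0.0711 (Sod1) in soleus, and 0.311 (Gclc) in tibialis anterior. Each of them moved by close to the shift of the median. Leaving out single libraries of 6 or 27 months, 902 of 930 values were the same, and estimates near 0 crossed it: Txnrd1 in gastrocnemius ran from -0.00733 to 0.0556, Gclc in soleus from -0.0464 to 0.0255, Srxn1 in soleus from -0.125 to 0.0376 and Gclc in tibialis anterior from -0.0362 to 0.0125. Gpx3 in gastrocnemius lost its call in 9 of 21 such repeats and Nqo1 in soleus gained one in 9 of 24. Why settings other than scaling and thresholds changed a call was not tested.

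At a 2-fold threshold the called members at 27 months numbered 2 in gastrocnemius, 1 in soleus and 2 in tibialis anterior. The age-related members there numbered 2, 1 and 3. In diaphragm 1 member was still called and age-related. The called genes of the wider lists numbered 9, 5 and 12 in the same limb muscles and 0 in diaphragm. The share of all genes at 2-fold was not counted. These counts, and those between muscles at 2-fold, can therefore not be read as high or low. Members that differed in change then numbered 1 for gastrocnemius minus diaphragm, 0 for soleus minus diaphragm, 2 for tibialis anterior minus diaphragm, 1 for tibialis anterior minus gastrocnemius and 3 for tibialis anterior minus soleus. Those that differed at 6 months numbered 1 for gastrocnemius minus diaphragm, 0 for soleus minus diaphragm, 1 for tibialis anterior minus diaphragm, 3 for soleus minus gastrocnemius, 1 for tibialis anterior minus gastrocnemius and 3 for tibialis anterior minus soleus. With Bonferroni adjustment 1 member differed in change for gastrocnemius minus diaphragm and 2 at 6 months for tibialis anterior minus diaphragm. The tibialis anterior minus gastrocnemius count for change was 1 with edgeR, total-count scaling, quality weights and without the libraries of wide spread, and that at 6 months was 1 with the last 2 of these. Total-count scaling gave 5 for gastrocnemius minus diaphragm. Without diaphragm 6 months replicate 0, an alternative also chosen after seeing the data, the 6-month count of tibialis anterior minus diaphragm was 2. The share of all genes called was not counted under these other settings either, so their counts likewise cannot be read as high or low.

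A fit with the replicate number as a replicate block changed 1 of 40 calls, Gpx3 in gastrocnemius (0.585). In the fit of all muscles, with the number within each age as the block, 21 of 60 differences in change and 26 of 60 differences at 6 months were called, the same ones as without it. By the rule used, that every pair should correlate above 0.1, the numbers did not pair the libraries. At 6 months, same-numbered pairs over 0.1 were 11 of 12 between soleus and tibialis anterior, 10 of 12 between diaphragm and tibialis anterior and 9 of 12 between diaphragm and soleus, and 10, 9 and 7 correlated best with their own number, a hint from the data and not from the labels. Between gastrocnemius and tibialis anterior 1 of 10 did in each case.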
